A study of Mus musculus with 12 samples.

Results

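The 10 genes described here encode ion channels of the plasma membrane and proteins that store and release calcium: Scn4b, Kcna3, Kcnn4, Orai1, Stim1, Itpr1, Itpr2, Itpr3, Trpm7 and Atp2a3. They were taken by gene symbol from 55335 gene rows, and all 10 had enough reads to be tested in both assays. Scn4b was chosen by its measured fall in knockout mice in these libraries, so its change with genotype is given as a description with no test. The other 9 genes were listed for what they encode.

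The libraries came from thymocytes of 6-week-old mice kept free of specific pathogens. The 2 genotypes were wild type (WT) and a knockout (KO) of miR-181a/b-1, which are paired microRNA genes, with 3 mice each. Every group was measured by RNA-seq and by ribosome footprinting, which sequences the mRNA stretches covered by ribosomes, giving 12 libraries in 4 groups of 3. All cells were kept in cycloheximide, which holds ribosomes on the mRNA. The sources used here do not give strain, sex or the way the knockout was made, nor which footprint and RNA-seq library came from the same mouse.

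When the T cell receptor is engaged, inositol trisphosphate opens its receptors (Itpr1, Itpr2, Itpr3) in the endoplasmic reticulum and calcium leaves the store. Stim1 senses the emptied store and opens Orai1, the pore of the calcium channel in the plasma membrane, while the pump Atp2a3 (SERCA3) returns calcium to the store. The potassium channels Kcna3 (Kv1.3) and Kcnn4 (KCa3.1) keep the membrane potential negative, which drives calcium in. Trpm7 is a channel for magnesium and other divalent ions fused to a kinase, and Scn4b is an accessory beta subunit of voltage-gated sodium channels. Sodium channels are best known in nerve and muscle, where they carry the rising phase of the action potential.

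The microRNAs encoded by the genes removed in the knockout are shown because these genes define the 2 genotypes. Their mature sequences, from RefSeq on GRCm38.p6, lie on the plus strand at chr1:137966468-137966490 and chr1:137966650-137966673, and capitals mark the seed, bases 2 to 8 from the 5′ end, through which a microRNA pairs with its targets.
mmu-miR-181a-5p: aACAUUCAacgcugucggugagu
mmu-miR-181b-5p: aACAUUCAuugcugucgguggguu
Both carry the same seed, ACAUUCA.

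The reads in genes numbered 4479182 to 8180286 per RNA-seq library and 4069968 to 17859770 per footprint library. Levels are given as CPM, a gene's reads relative to its library's TMM-scaled total, and they are not corrected for gene length. The removed gene Mir181a-1 was checked first. In footprint libraries it had 166, 133 and 145 CPM in WT and 0.464, 1.04 and 0.982 CPM in KO, so it changed by -7.47 on the log2 scale (SE 0.20, edgeR FDR 2.24e-05). In RNA-seq it had only 57 reads over the WT libraries and 67 over the KO libraries (log2 fold change 0.33, edgeR FDR 0.756). Its RNA-seq reads thus did not fall in KO, although the gene was removed there. Where these KO reads come from was not tested. This gene therefore did not bear out the RNA-seq labels, and those groups are named as labelled. Libraries that share a replicate number deviated from their group means in opposite directions. Over 7849 genes in RNA-seq the correlation of these deviations between the WT and the KO library of a number was -0.99 to -0.979, and over 7119 genes in footprints it was -0.992 to -0.991. The 9 members among those genes in RNA-seq showed it in 27 of 27 pairs, and the 8 in footprints in 24 of 24. The authors named these counts adjusted. In a fit that took replicate number as a block, 110 genes were called in RNA-seq in place of 943, and 408 in footprints in place of 2376, and calls that the block ended are named as such.

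Scn4b had 68.2, 49.2 and 63.5 CPM in the WT RNA-seq libraries and 7.61, 11.6 and 8.36 CPM in the KO libraries. All KO libraries lay below all WT libraries, as for 15.4% of all tested genes, and the log2 fold change was -2.75 (SE 0.19), from 1243 reads in WT and 168 in KO. Scn4b stood 12th from the lowest log2 fold change among 13652 tested genes. Its value stayed between -2.91 and -2.64 with any 1 library left out. None fell further among called genes averaging a log2 CPM of 3 or more, and the nearest were Hspa8, a heat shock chaperone whose reads can be shared with near-identical copies, at -2.72 and Ctse, the protease cathepsin E, at -2.64.

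Footprints on Scn4b were at 25.1, 21.7 and 21.3 CPM in WT and 5.10, 6.30 and 6.87 CPM in KO. Here too every KO library lay below every WT library, as for 19.6% of all tested genes, with a log2 fold change of -1.93 (SE 0.12) from 1051 and 180 reads, which ranked 36th from the lowest of 13509 genes. Footprints relative to RNA changed by 0.83 on the log2 scale (SE 0.25), footprints having fallen less than RNA. These values chose the gene and carry no test. In bulk samples, fewer cells that express a gene and less of its RNA per cell cannot be told apart.

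**Figure D1:**
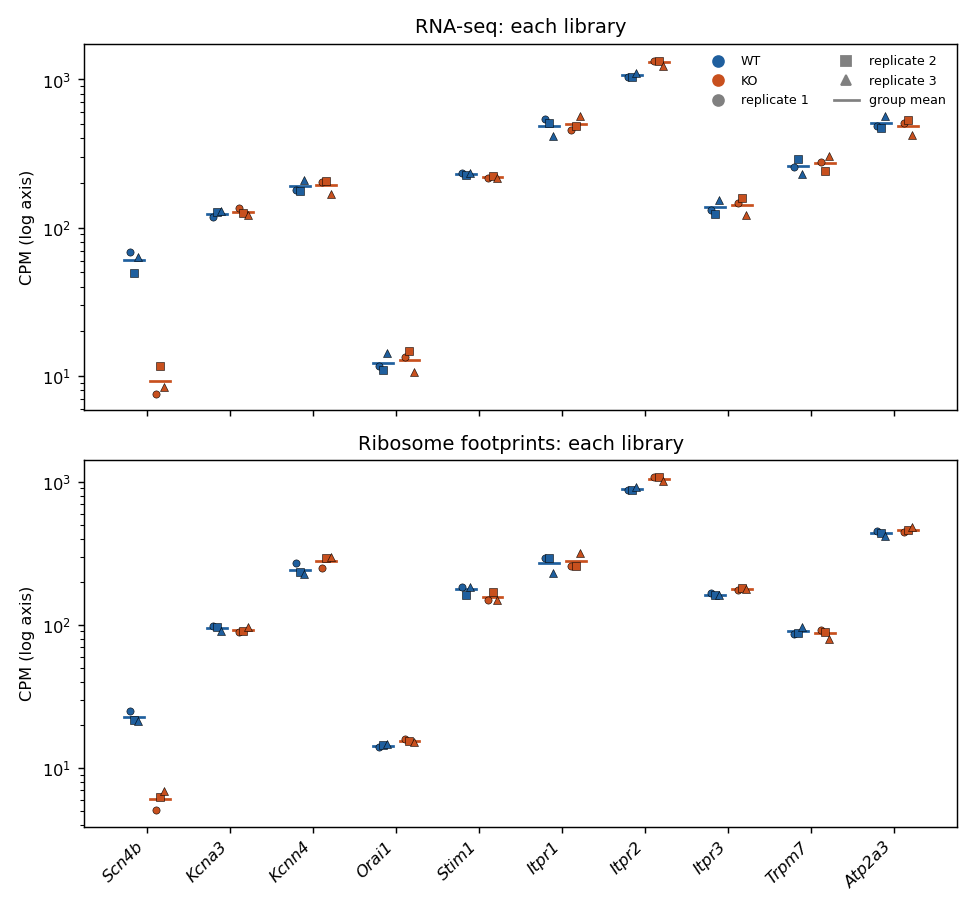
CPM of the 10 genes in each library (log axis) for RNA-seq above and ribosome footprints below; symbols mark replicate numbers, bars group means. Scn4b is the gene whose KO libraries, 7.61 to 11.6 CPM in RNA-seq, lie far below WT; the other genes have WT and KO libraries side by side.

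The other 9 genes gave few calls. In RNA-seq 1 of the 9 passed the test (edgeR FDR under 0.05), Itpr2, which rose, where 6.91% of all tested genes passed, 3.48% higher and 3.43% lower. Their median log2 fold change was 0.04, against -0.00 over all genes. In footprints 2 of the 9 passed, Itpr2 and Itpr3, both upward, where 17.6% of all genes passed, 9.25% higher and 8.34% lower, and the median was 0.08 against -0.01. With the replicate block 0 of the 9 passed with edgeR in either assay, where 0.806% of all genes passed in RNA-seq and 3.02% in footprints. Without the block 1 of the 9 in RNA-seq and 3 in footprints had an unadjusted p under 0.05, and DESeq2 called 1 in each.

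**Figure D2:**
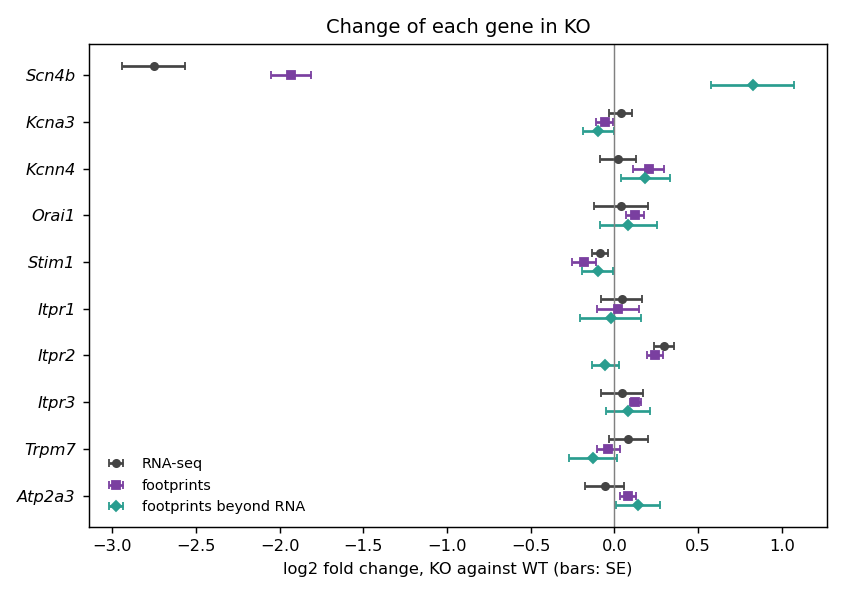
Log2 fold change of KO against WT for each gene, with its standard error, in RNA-seq (circles), in footprints (squares) and in footprints beyond RNA (diamonds). Scn4b stands at -2.75 in RNA-seq and -1.93 in footprints, while the other 9 genes lie between -0.18 and 0.29 in both.

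The potassium channel genes gave no call. Kcna3 RNA was at 117, 127 and 130 CPM in WT and 136, 126 and 122 CPM in KO, so the groups overlapped (log2 fold change 0.04, SE 0.07, edgeR FDR 0.784). Kcna3 footprints were at 99.0, 96.9 and 90.2 CPM in WT and 88.8, 90.7 and 97.0 CPM in KO, again overlapping (-0.06, edgeR FDR 0.479). Kcnn4, the calcium-activated channel, had 180, 178 and 211 CPM of RNA in WT and 203, 208 and 169 CPM in KO (log2 fold change 0.02, edgeR FDR 0.929). The KO library with replicate number 3 was the lowest of the 6, and the WT library with that number the highest. Kcnn4 footprints were at 269, 233 and 228 CPM in WT and 251, 294 and 298 CPM in KO, and the difference of 0.20 on the log2 scale (SE 0.09) missed the threshold (edgeR FDR 0.175).

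For store-operated calcium entry, Orai1 RNA was at 11.6, 10.9 and 14.3 CPM in WT and 13.3, 14.7 and 10.6 CPM in KO, with overlapping groups (log2 fold change 0.04, edgeR FDR 0.911). Orai1 footprints were at 14.0, 14.5 and 14.7 CPM in WT and 16.05, 15.5 and 15.2 CPM in KO. The KO libraries all lay above the WT libraries, as for 18.5% of all tested genes in footprints, and the log2 fold change was 0.12 (SE 0.06, edgeR FDR 0.313). Stim1, the store sensor, went the other way. Its RNA was at 235, 227 and 233 CPM in WT and 216, 224 and 216 CPM in KO, with every KO library below every WT library, as for the 15.4% of genes noted above (log2 fold change -0.09, edgeR FDR 0.339). Its footprints overlapped, at 184, 163 and 185 CPM in WT and 150, 169 and 149 CPM in KO (-0.18, SE 0.07, edgeR FDR 0.136). Neither gene passed the test in either assay.

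Of the 3 inositol trisphosphate receptors, Itpr2 was the one called in both assays. Itpr2 RNA was at 1041, 1046 and 1112 CPM in WT and 1341, 1340 and 1242 CPM in KO, with no overlap, as for 15.5% of all tested genes in that direction. The log2 fold change was 0.29 (SE 0.06, edgeR FDR 0.036, and 0.488 with the replicate block). Itpr2 footprints were at 870, 873 and 926.5 CPM in WT and 1078, 1072 and 1005 CPM in KO (0.24, SE 0.05, edgeR FDR 0.0161, and 0.199 with the block). They too did not overlap, as for 18.5% of all tested genes in that direction in footprints. The authors' deposited table lists Itpr2 as significantly up in both assays. With 1 library left out, the log2 fold change stayed between 0.27 and 0.33 in RNA-seq and between 0.22 and 0.28 in footprints. The RNA call was lost whichever of the 6 libraries was left out (edgeR FDR 0.0739 to 0.137). The footprint call held in 2 of 6 such fits and was lost without replicate 1 or without replicate 2 of either genotype (edgeR FDR 0.0227 to 0.0613 over the 6).

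Itpr1 overlapped between genotypes. Its RNA was at 541, 508 and 417 CPM in WT and 457, 485 and 568 CPM in KO (log2 fold change 0.04, edgeR FDR 0.869), and its footprints at 293, 293 and 229 CPM in WT and 256, 256 and 320 CPM in KO (0.02, edgeR FDR 0.939). In both assays the library numbered 3 was the lowest in WT and the highest in KO. Itpr3 RNA overlapped as well, at 132, 124 and 155 CPM in WT and 147, 158 and 121 CPM in KO (0.05, edgeR FDR 0.867). Itpr3 footprints were at 166, 161 and 162 CPM in WT and 174.5, 180.0 and 178 CPM in KO. All KO libraries lay above all WT libraries, as for 18.5% of all tested genes in footprints. The log2 fold change was 0.12 (SE 0.03, edgeR FDR 0.0464). This call was lost in each of the 6 fits with 1 library left out (edgeR FDR 0.0878 to 0.179), with the replicate block (edgeR FDR 0.51) and with DESeq2 (adjusted p 0.313). The authors' deposited table lists Itpr3 footprints as not significant.

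Trpm7 and Atp2a3 gave no call. Trpm7 RNA was at 257, 290 and 230 CPM in WT and 277, 240 and 304 CPM in KO (log2 fold change 0.08, edgeR FDR 0.724), and its footprints at 86.2, 87.7 and 97.2 CPM in WT and 91.7, 89.8 and 80.0 CPM in KO (-0.04, edgeR FDR 0.759). Atp2a3 RNA was at 488, 468 and 571 CPM in WT and 510, 537 and 421 CPM in KO (-0.06, edgeR FDR 0.806). Its footprints were at 453, 438 and 416 CPM in WT and 445, 460 and 481 CPM in KO (0.08, edgeR FDR 0.282). In all of these the WT and KO libraries overlapped.

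A change of translation was sought as a change of footprints beyond that of RNA, the interaction of genotype and assay over the 12 libraries. None of the 9 genes passed with edgeR, where 0.211% of 11854 genes tested in both assays did. Their log2 differences lay between -0.13 for Trpm7 and 0.18 for Kcnn4. Of the 9, 0 had an unadjusted p under 0.05 and 0 were called by DESeq2. For Itpr2 the value was -0.05 (SE 0.08, edgeR FDR 0.82), its footprints and RNA having moved alike within this error.

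Within WT alone the genes differed in how many footprints they had for their RNA, and the WT libraries also entered the choice of Scn4b, whose ratio is given with no test. Of the other 9 genes 7 passed the test, 3 with more and 4 with fewer footprints for their RNA than the scaling's middle, where 82.9% of all genes did, 41.8% with more and 41% with fewer. Footprints were fewest for their RNA on Trpm7, with a log2 ratio of footprint CPM to RNA CPM of -1.32 (SE 0.09, edgeR FDR 5.72e-09). Scn4b was at -1.20 (SE 0.12), from 68.2, 49.2 and 63.5 CPM of RNA and 25.1, 21.7 and 21.3 CPM of footprints. Both lay between the 10th and the 25th percentile of all genes, at -1.83 and -0.89. Itpr1 was at -0.65, and Stim1 and Kcna3 both at -0.19. The Stim1 call was lost without RNA-seq replicate 1 and without footprint replicate 2 or 3 (edgeR FDR up to 0.163), and that of Kcna3 without replicate 2 or 3 of either assay (edgeR FDR up to 0.251). With no count filter both were lost too, at -0.07 for Stim1 and -0.06 for Kcna3. The ratio was above 0 for Kcnn4 (0.56, edgeR FDR 5.3e-05), Itpr3 (0.45, edgeR FDR 0.000218) and Orai1 (0.42, edgeR FDR 0.00643). Itpr2 at -0.06 and Atp2a3 at -0.03 did not pass. The 3 receptor genes were thus spread from -0.65 to 0.45. RNA-seq reads come from the whole transcript and footprints mainly from its coding part, and the ratio was not corrected for their lengths.

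Scn4b was set beside Scn2b, another beta subunit of sodium channels. Scn2b varied more between libraries of one group than between genotypes. Its RNA was at 49.1, 16.3 and 17.1 CPM in WT and 12.3, 42.1 and 37.8 CPM in KO, so the high libraries were number 1 in WT and numbers 2 and 3 in KO (log2 fold change 0.15, SE 0.58, edgeR FDR 0.906). Footprints had the same high libraries, at 17.8, 8.17 and 6.92 CPM in WT and 7.61, 28.8 and 32.2 CPM in KO (0.95, SE 0.57, edgeR FDR 0.304). The opposite order of same-numbered WT and KO libraries is that of the mirrored deviations described above and is not particular to Scn2b.

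**Figure D3:**
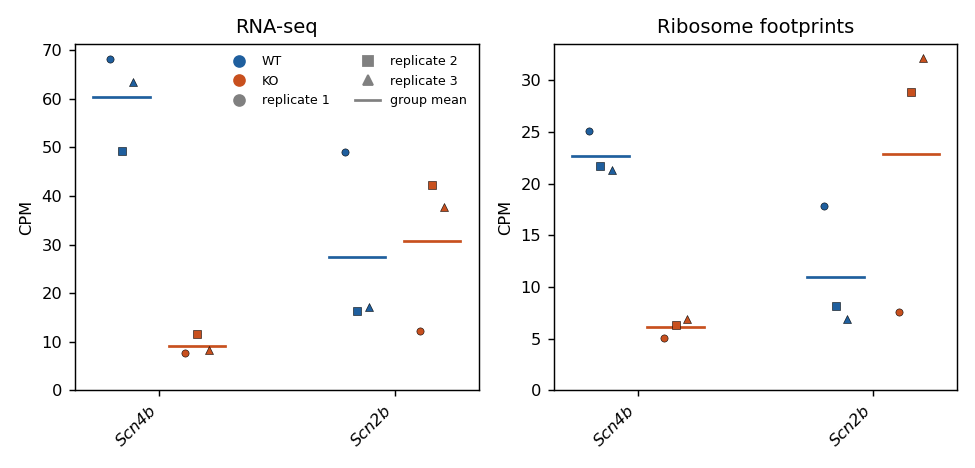
CPM of the sodium channel beta subunit genes Scn4b and Scn2b by library, in RNA-seq (left) and footprints (right); bars are group means and symbols replicate numbers. Scn4b separates by genotype, while the Scn2b libraries are split within each genotype, from 12.3 to 49.1 CPM in RNA-seq.

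Scn2b is also the tested gene next to Scn4b on the chromosome, so the genes on either side were described in the order of the RefSeq annotation of GRCm38.p6. Before Scn4b come Cd3e, Mpzl2, Mpzl3, Jaml and Scn2b, and after it Tmprss4, Il10ra, Cep164, Bace1 and Rnf214. In RNA-seq 2 of the 10 passed, both downward, where 6.91% of all genes passed and 3.43% were lower. Jaml, an adhesion molecule of leukocytes, was at 10.3, 10.2 and 11.7 CPM in WT and 5.27, 5.45 and 4.37 CPM in KO (log2 fold change -1.12, edgeR FDR 0.00671). Il10ra, a chain of the interleukin-10 receptor, was at 25.4, 26.5 and 26.7 CPM in WT and 15.4, 14.4 and 14.5 CPM in KO (-0.83, edgeR FDR 0.00299). In both genes all KO libraries lay below WT, as for 15.4% of all genes, and both fell in footprints too, by 0.99 for Jaml (edgeR FDR 0.00223) and by 0.64 for Il10ra (edgeR FDR 0.00733) on the log2 scale. With the replicate block the Jaml footprint call was kept (edgeR FDR 0.0125), and the Jaml RNA call (0.076) and both Il10ra calls (0.0636 in RNA, 0.115 in footprints) were lost. The adhesion gene Mpzl2 passed in footprints alone, with a rise of 0.50 (edgeR FDR 0.0273) that was lost with any 1 library left out and with the block (edgeR FDR 0.356). Cd3e, a chain of the T cell receptor complex, was at 1245, 1008 and 1005 CPM of footprints in WT and 1253, 1580 and 1576 CPM in KO. Its log2 fold change of 0.44 missed the threshold with edgeR (FDR 0.0558) and passed without WT or KO replicate 1 (edgeR FDR down to 0.0309) and with DESeq2 (adjusted p 0.000517). The authors' deposited table lists it as significantly up in footprints.

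**Figure D4:**
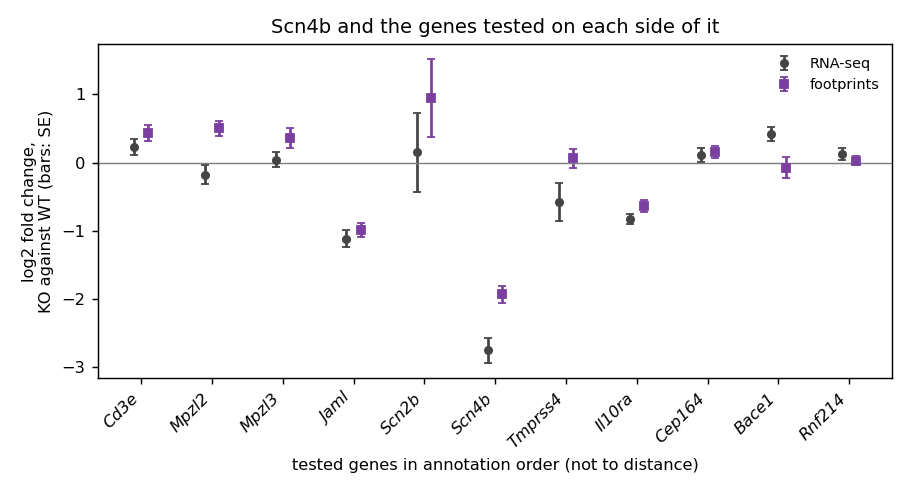
Log2 fold change of KO against WT, with standard errors, for Scn4b and the 5 tested genes on each side in annotation order (not to distance), in RNA-seq and footprints. Scn4b is lowest, Jaml at -1.12 and Il10ra at -0.83 in RNA-seq are the next lowest, and Scn2b next to it has the widest errors.

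The genes whose levels followed Scn4b most closely over the 12 libraries were found by Pearson's r of log2 CPM centred on each assay's mean, among 11853 other genes, and are given as a description. They were Arhgap1 (0.995), Als2cl (0.992), Diexf (0.992), Cyfip2 (0.992) and Il6ra (0.989). Their KO to WT differences were smaller than that of Scn4b, from -1.33 for Il6ra, the interleukin-6 receptor, to -0.19 for Diexf on the log2 scale in RNA-seq. For Il6ra the RNA-seq libraries were at 27.5, 24.3 and 29.9 CPM in WT and 10.97, 12.5 and 9.61 CPM in KO. For Als2cl they were at 148.8, 119.67 and 139.66 CPM in WT and 59.1, 74.3 and 62.7 CPM in KO, and like Scn4b the gene had its lowest WT and highest KO library at replicate number 2. All 12 points share their libraries, and with them the mirrored deviations described above. The centring keeps the difference between genotypes by which Scn4b was chosen, so r also follows that difference.

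The rest of the pathway was read from 7 lists with 91 genes tested in RNA-seq and 92 in footprints, none of them among the 10 genes. In RNA-seq 5 of the 91 were called higher and 8 lower in KO, with 6.91% of all genes called (1 higher and 2 lower with the replicate block, and 0.806%). In footprints 12 of the 92 were called higher and 14 lower, with 17.6% of all genes called (3 higher and 2 lower with the block, and 3.02%). With the block Cacna1e, Cacnb3 and Camk2d were called in both assays and Kcnq5 and Lrrc8c in footprints, and every other call in these lists was lost. The median log2 fold change of the lists was -0.04 in RNA-seq and -0.00 in footprints. For footprints beyond RNA, 0 of 87 passed with edgeR and 0 with DESeq2, while 10 had an unadjusted p under 0.05.

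The steepest falls in the lists were those of Cacna1e and Cacnb3, which encode subunits of voltage-gated calcium channels. Cacna1e, a pore-forming subunit, had 245, 270 and 270 CPM of RNA in WT and 62.0, 55.4 and 55.6 CPM in KO (log2 fold change -2.18, SE 0.07, edgeR FDR 0.00012). Its footprints fell from 46.8, 55.4 and 53.8 CPM to 12.8, 10.6 and 10.8 CPM (-2.18, SE 0.10, edgeR FDR 0.000211). The accessory subunit Cacnb3 fell from 23.2, 24.0 and 28.2 CPM of RNA to 8.78, 8.29 and 6.61 CPM (-1.69, SE 0.14, edgeR FDR 0.00266), and in footprints by 1.51 on the log2 scale (edgeR FDR 0.000804). For both genes the calls held in each fit with 1 library left out and with the block, in both assays. Cacna1e lies on chromosome 1, at 154390806 to 154884785, the chromosome of the removed microRNA genes. Whether this position bears on its fall was not tested. Of 20 other plasma membrane channel genes tested in RNA-seq, 1 was called higher and 4 lower, against 3.48% and 3.43% of all genes. In footprints, where 9.25% of all genes were higher and 8.34% lower, 3 of 19 were higher, among them Tmem63a, an osmosensitive channel (0.42, edgeR FDR 0.00219), and Lrrc8c, a volume-regulated anion channel subunit (0.35, edgeR FDR 0.0021), and 3 lower.

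Among potassium channel genes 1 of 8 was called higher and 2 lower in RNA-seq, and 1 of 10 higher and 3 lower in footprints. Over all genes 6.91% were called in RNA-seq and 17.6% in footprints. With the block 0 of 8 were called in RNA-seq by edgeR and 1 of 10, Kcnq5, in footprints. Kcnq5 rose from 9.86, 11.7 and 11.6 CPM of RNA to 21.4, 18.2 and 18.7 CPM (log2 fold change 0.82, edgeR FDR 0.0113) and by 1.04 in footprints (edgeR FDR 0.00847). Kcnh2 fell by 0.57 in RNA (edgeR FDR 0.0311) and by 0.37 in footprints (edgeR FDR 0.0468), and Kcnab2, an accessory subunit that binds Kv1 channels, by 0.38 (edgeR FDR 0.0305) and by 0.22 (edgeR FDR 0.00917). With 1 library left out, the RNA call of Kcnh2 held only without KO replicate 2 and its footprint call only without WT replicate 3. That of Kcnab2 was lost in all 6 such fits in RNA, and in footprints without KO replicate 1 (edgeR FDR 0.0554). Kcnj2, an inward rectifier, was called in footprints at 1.37, 1.06 and 1.33 CPM in WT against 0.464, 0.715 and 0.245 CPM in KO, and lost with any 1 library left out.

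For store-operated entry beyond Orai1 and Stim1, 1 of 8 genes was called in RNA-seq and 3 of 8 in footprints, where 6.91% and 17.6% of all genes were called. Saraf, which restrains Stim1, fell in RNA from 221, 231 and 210 CPM to 167, 159 and 175 CPM (-0.40, edgeR FDR 0.0209), a call lost without replicate 1 or 2 of either genotype (edgeR FDR up to 0.0888), and overlapped in footprints. Footprints of Stim2 (0.15, edgeR FDR 0.0219), Orai2 (0.26, edgeR FDR 0.0464) and Sept7 (0.13) rose, and all 3 were called in none of the 6 fits with 1 library left out. Among store and pump genes beyond those of the 10, Ryr2, a ryanodine receptor, rose in RNA (1.71, edgeR FDR 0.00514) on only 20 reads in WT and 61 in KO. In footprints 1 of 17 such genes was called higher and 3 lower, against 9.25% and 8.34% of all genes. The pump Atp2a2 (SERCA2), related to Atp2a3, was at 334, 341 and 325 CPM in WT and 275, 269 and 281 CPM in KO (-0.28, edgeR FDR 0.00516). Calr, the calcium-binding chaperone of the store, was at 980, 1009 and 1011 CPM in WT and 863, 837 and 831 CPM in KO (-0.24, edgeR FDR 0.00635). Neither changed in RNA past the test (edgeR FDR 0.212 and 0.583), and Atp2a3 footprints did not pass.

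Of 11 mitochondrial calcium genes 1 was called higher and 1 lower in RNA, and 1 higher and 2 lower in footprints, where 6.91% and 17.6% of all genes were called. In footprints Mcur1, a regulator of the uniporter, rose by 0.60 (edgeR FDR 0.00754). Downstream of calcium, 1 of 26 genes of calmodulin, calcineurin, NFAT and linked kinases was called in RNA, against 6.91% of all genes. Camk2d, a calmodulin-dependent kinase, rose from 117, 121 and 101 CPM to 182, 174 and 206 CPM (0.73, SE 0.10, edgeR FDR 0.0118), a call lost without WT replicate 1 (edgeR FDR 0.0504). Its footprints rose by 0.59 (edgeR FDR 0.0013). In footprints 3 of 25 were called higher and 2 lower, against 9.25% and 8.34% of all genes, among the latter Rcan1, a calcineurin regulator (-0.71, edgeR FDR 0.0135; lost without KO replicate 1 or 2, at up to 0.0648).

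**Figure D5:**
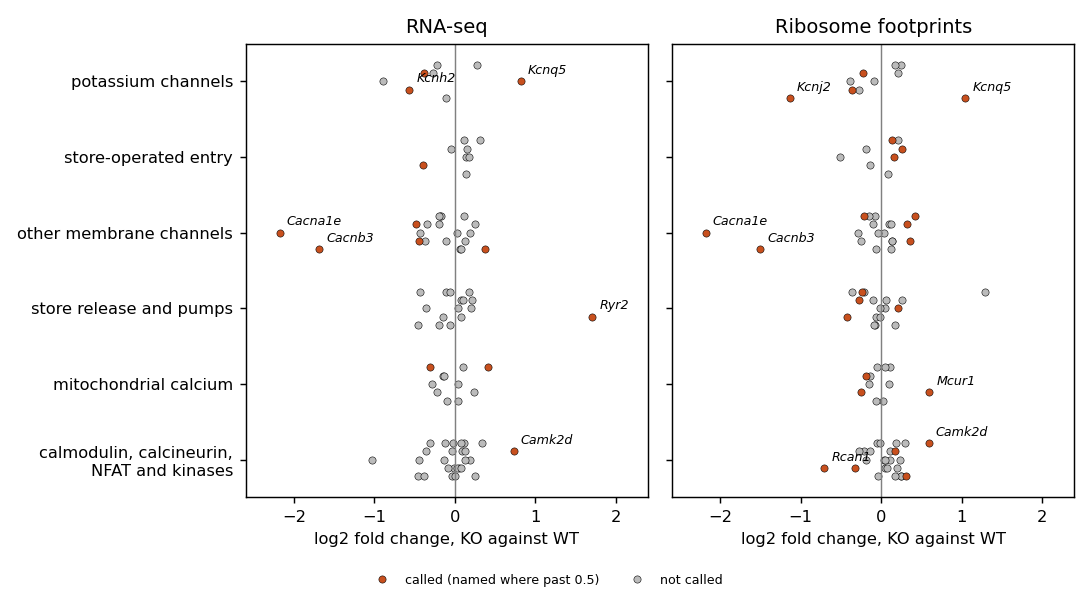
Log2 fold change of KO against WT for every tested gene of the channel and calcium lists other than sodium channel subunits, in RNA-seq (left) and footprints (right); orange points were called at an edgeR FDR under 0.05 and are named where past 0.5 on the log2 scale. Most points lie near 0, with Cacna1e at -2.18 and Cacnb3 at -1.69 lowest in RNA-seq.

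Levels of thymocyte markers and of other cells' markers are given because their genes could move with those above. Thymocyte markers (10 genes) summed to 8370 to 8991 CPM of RNA in WT and 8300 to 8851 CPM in KO, overlapping, while in footprints their sum was higher in KO, at 14940 to 16240 CPM against 13110 to 14270 CPM. Of these 10 genes 1 was called lower in RNA, where 3.43% of all genes were. In footprints 2 were called higher and 2 lower, against 9.25% and 8.34% of all genes. With the replicate block the RNA call and the lower footprint calls were lost, and 1 of the 10 was called higher in footprints. Double-positive markers (7 genes) overlapped in RNA, at 11230 to 12450 CPM in WT and 10430 to 11270 CPM in KO, and were lower in KO in footprints, at 15220 to 15840 CPM against 16860 to 17630 CPM. Of these 7 genes 1 was called higher in RNA and 1 lower in footprints, against 3.48% and 8.34% of all genes. Both calls were lost with the block. Double-negative markers (6 genes) were higher in KO in both assays, at 236.5 to 251.6 CPM of RNA against 188.2 to 204.7 CPM and 305.6 to 317.3 CPM of footprints against 268.4 to 278.3 CPM. Il2ra was the 1 of these 6 called, in both assays, where 3.48% of all genes were called higher in RNA-seq and 9.25% in footprints. With the replicate block 1 of the 6 was still called higher in each assay.

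The summed RNA of B cell markers (7 genes) was 238.1 to 274.1 CPM in WT and 288.3 to 333.2 CPM in KO, and that of fibroblast and endothelial markers (7 genes) 206.3 to 213.5 and 238.8 to 251.2 CPM. In footprints both sums overlapped, at 292.9 to 367.4 and 345.6 to 442.3 CPM for B cells and at 208.8 to 248.2 and 244 to 293.8 CPM for fibroblasts and endothelium. Erythroid markers (7 genes) were lower in KO in RNA, at 46.64 to 58.88 CPM against 76.58 to 91.78 CPM, and overlapped in footprints, at 35.15 to 75.36 CPM against 40.75 to 76.36 CPM. In RNA 2 of 5 tested fibroblast and endothelial markers were called higher and 1 of 5 erythroid markers lower. The shares of all genes were 3.48% and 3.43%. In footprints 1 of 7 B cell and 2 of 7 fibroblast and endothelial markers were called higher, and 1 of 5 erythroid markers lower. There the shares were 9.25% and 8.34%. With the replicate block 1 of 7 B cell markers was still called higher in footprints, and the other calls were lost. Sums for mature single-positive, myeloid and epithelial markers overlapped between genotypes in both assays. Single genes among them were called lower in RNA all the same, where 3.43% of all genes were. They were 2 of 8 mature single-positive markers (Klf2 and Ccr7, median log2 fold change of the list -0.36), 1 of 7 myeloid markers and 1 of 7 epithelial markers. With the replicate block all of these RNA calls were lost. In footprints 1 of 8 mature single-positive markers was called higher and 1 lower, and 1 myeloid and 1 epithelial marker were called lower. Over all genes 9.25% were higher and 8.34% lower in footprints. With the block 1 of 7 myeloid markers was still called lower, and the mature single-positive and epithelial calls were lost. No marker was at 0 over all libraries of an assay, and the part of these cells in the results above was not tested.

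The promoters of the 10 genes were compared for CG pairs, counted in the 300 bases from 250 before to 50 after each start in RefSeq on GRCm38.p6, where 9 of the 10 had an entry. The window of Kcnn4 held 6 and the other 8 held 25 to 38, with 26 for Scn4b. Over 17492 protein-coding genes the median was 13, and 24.5% held at least 25. This is a description of the sequences, and no data on promoters were used here.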

How the data were processed

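RNA-seq and ribosome footprint libraries, 3 per genotype and assay, were grouped by assay, genotype and replicate number in their titles. The authors deposited 1 table of whole counts per assay, with a row per Ensembl gene, and named them adjusted; what was adjusted is not stated in the labels or headers. The submitters' processing notes name FastQC, Bowtie2 2.5.1, STAR 2.7.10a, HTSeq 2.0.3 and DESeq2 1.40.2 with no order. The sources used here do not give the genome build or the strand setting. Reads in genes were 27.0% to 28.5% of counted reads in RNA-seq and 72.3% to 73.1% in footprints, and rows outside genes were left out. Of the gene IDs, 54587 matched a symbol by versioned ID, 567 without version and 1 through the authors' deposited table, and 180 had none. The 12 columns of per-library values in the authors' comparison tables were not used.

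Counts were fitted with edgeR 4.0.16 (R 4.3.3): TMM scaling, filterByExpr (minimum count 10), the quasi-likelihood test and Benjamini-Hochberg adjustment over all tested genes, calling genes at FDR under 0.05. The 6 libraries of an assay were fitted together. The interaction and the WT ratio used genes that passed in both assays. The procedure was tested on simulated data with known changes, in libraries drawn independently of each other. These had no mirrored deviations, so that test does not bear on the FDRs under mirroring. Alternatives were DESeq2 1.42.0, RLE size factors, fits without the count filter or with the replicate number as a block, and fits without each library. The p-values measure only the spread between these libraries. In the KO against WT fits without the block they take the mirrored libraries as independent, so they are likely too small.

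The 10 genes and all lists were chosen with earlier results of these data known, so no value adjusted over a list is given. Besides the 10, genes named were those called in the 7 lists (at most 6 per list by p), sodium channel subunits with at least 10 reads (some of them are not reported here), the 5 closest to Scn4b in pattern (prior count 2), the 5 tested on each side of it, the 2 nearest in fold change at average log2 CPM of at least 3, and Mir181a-1.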

Additional observations from a re-analysis of the deposited data

Results flagged for a closer look

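Of 56 named genes with a test of the difference between assays, 1 passed. Mir181a-1 fell in footprint libraries and not in RNA-seq, and the difference between the 2 changes was -7.80 on the log2 scale (edgeR FDR 0.000318). It is a microRNA gene of 87 bases and not a protein-coding one, so this value is not read as a change of translation. The RNA-seq value rests on 57 reads in WT and 67 in KO, against 6803 and 25 in footprints.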

How the results depend on the processing

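RLE size factors, DESeq2, no count filter, a replicate block and leaving out each library were tried. No named gene's called change reversed. Among the 9 genes other than Scn4b, 1 was called in RNA-seq (0 with the block, 0 in each fit with 1 library left out). In footprints 2 were called (1 with RLE size factors, 1 with DESeq2, 1 with no count filter, 0 with the block, 0 to 1 with 1 library left out). In the WT ratio 7 were called, 5 with no count filter and 5 to 7 with 1 library left out. Over all genes, 943 were called in RNA-seq (532 with DESeq2, 215 to 323 with 1 library left out), 2376 in footprints (1235 with DESeq2, 1035 to 1554 with 1 library left out), and 25 for footprints beyond RNA (44 with DESeq2, 6 to 24 with 1 library left out). With the replicate block these were 110, 408 and 2. Same-numbered libraries mirrored each other instead of deviating together (r from -0.992 to -0.979), so they are tied by number. Whether they were handled as pairs is not stated, nor is what was adjusted in the counts. The KO deviations nearly repeat the WT ones with the sign turned, so the fit without the block counts more independent deviations than there are. Its FDRs are therefore likely too small, and the fit with the block is the more cautious one. With the block Itpr2 had an edgeR FDR of 0.488 in RNA-seq and 0.199 in footprints. Depth limits the low genes: Ryr2 rests on 20 reads in WT and 61 in KO.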
